A study of Mus musculus with 4 samples.

Results

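The genes examined here mark inhibitory interneurons of the cortex or make and package their transmitter, GABA. They were taken as the rows of the deposited tables whose gene name was Gad1, Gad2, Slc32a1, Pvalb, Lhx6, Reln, Lamp5, Dlx1 or Dlx2, which gave 9 of 39179 genes. Expression was measured by sequencing total RNA from mouse brain cortex, in wildtype (WT) littermates and in BK knockout (KO) mice, which are deficient for the BK channel, a potassium channel gated jointly by voltage and calcium. Both genotypes were F1 crosses between C57Bl6/J and Sv129, housed in groups of 2, and their age is not given in the sources used here. The 4 groups had 1 library each, and RNA of 4 animals was pooled for it. Wildtype baseline (WT BL) and knockout baseline (KO BL) animals were left undisturbed, and wildtype (WT SD) and knockout (KO SD) animals were kept awake for 4 h from light onset by gentle handling. Tissue of all groups was taken at ZT4, that is 4 h after light onset. No group had a second library, so no difference between libraries has a replicate check.

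GABA is made from glutamate by a pair of glutamate decarboxylases, encoded by Gad1 and Gad2, and is loaded into synaptic vesicles by the transporter encoded by Slc32a1. In the mouse, cortical interneurons arise in the ganglionic eminences of the embryo, where the homeobox genes Dlx1 and Dlx2 are needed for their birth and migration and Lhx6 for the lineage of the medial eminence. That lineage gives rise to the fast-spiking cells that hold the calcium buffer parvalbumin (Pvalb). The secreted glycoprotein reelin (Reln) and the membrane protein encoded by Lamp5 mark neurogliaform and other superficial cells, although in mouse cortex Lamp5 is also made by some upper-layer pyramidal cells.

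Of the 9 genes, 7 lie on chromosome 2, Reln on chromosome 5 and Pvalb on chromosome 15. On mm10 (GRCm38), Dlx1 (ENSMUSG00000041911, 71528113 to 71533981, plus strand) and Dlx2 (ENSMUSG00000023391, 71543409 to 71546754, minus strand) face each other on chromosome 2 with 9427 bp between them. Gad1 (ENSMUSG00000070880) runs from 70553072 to 70602014 and Gad2 (ENSMUSG00000026787) from 22622205 to 22693874 on the same chromosome. Slc32a1 (ENSMUSG00000037771, 158610767 to 158615748), Lamp5 (ENSMUSG00000027270, 136052239 to 136069917) and, on the minus strand, Lhx6 (ENSMUSG00000026890, 36081950 to 36105408) also lie there. Pvalb (ENSMUSG00000005716) runs from 78191114 to 78206400 on chromosome 15 and Reln (ENSMUSG00000042453) from 21884454 to 22344702 on chromosome 5, both on the minus strand. In GENCODE M21, exons of Dlx1 overlap those of Dlx1as on the opposite strand, which stood at 161.6 normalised counts (WT BL) and 28.9 (WT SD) in wildtype pools, and 152.7 (KO BL) and 149.2 (KO SD) in knockout pools. Exons of Slc32a1, Lhx6 and Reln overlap those of a non-coding gene read at no more than 1.76 normalised counts in any library. Whether the counting used strand is not given in the sources used here, so that reads of Dlx1 and Dlx1as cannot be told apart.

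The 250 bases before a RefSeq start are shown for Pvalb and Dlx2, which were chosen with their differences known. The windows shown are unlike in CpG content. The sequences are from RefSeq (GRCm38.p6), 5′ to 3′ on the minus strand, with CpG dinucleotides in capitals, and lie at chr15:78206401-78206650 (Pvalb, 4 CpG, GC content 58.4%) and chr2:71546755-71547004 (Dlx2, 24 CpG, 66.4%).
Pvalb: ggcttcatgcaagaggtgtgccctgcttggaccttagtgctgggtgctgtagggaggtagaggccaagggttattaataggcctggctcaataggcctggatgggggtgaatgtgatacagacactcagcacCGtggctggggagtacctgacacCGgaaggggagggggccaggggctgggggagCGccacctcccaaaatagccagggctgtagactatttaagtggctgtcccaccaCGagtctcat
Dlx2: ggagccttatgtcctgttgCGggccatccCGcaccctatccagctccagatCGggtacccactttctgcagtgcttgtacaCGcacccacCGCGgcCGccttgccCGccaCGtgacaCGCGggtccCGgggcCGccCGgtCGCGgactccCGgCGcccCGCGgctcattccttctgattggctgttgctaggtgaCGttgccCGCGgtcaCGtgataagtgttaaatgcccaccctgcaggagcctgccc
The median over 32851 such windows was 6 CpG, the windows of Gad1 and Gad2 held 17 and 13, and that of Reln held 37. RefSeq gives Pvalb a further start 2163 bp into the gene, whose window held 23 CpG, beside 24 in that of Dlx2. The contrast between Pvalb and Dlx2 thus depends on the window taken. The RefSeq start of Gad1 lies 9057 bp inside the gene as the deposited tables bound it. Among the 13 windows of the 9 genes, none held the homeodomain core TAATTA, the cyclic AMP response element TGACGTCA or the estrogen-related receptor motif AAGGTCA on either strand. These letters occurred in 4.84%, 1.55% and 4.08% of all windows. The GC box GGGCGG, present in 32.7% of all windows, was found in 5 of the 13, namely those of Dlx2, Gad1 and Reln and 2 windows of Lhx6, and the TATA box TATAAA (12.4% of all windows) in that of Gad1. None of these motifs contains another. The letters of a window are a description and say nothing of what binds there.

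Facts of all libraries bear on every value given here. The deposited values are estimated read counts divided by 1 factor per library (normalised counts). They correspond to between 27.7 M and 42.0 M estimated reads per library. WT SD stood apart, with correlations across 13550 genes (log2 scale) of 0.877 to 0.911 with the other libraries, against 0.956 to 0.972 among those. The targeted gene Kcnma1 was read at 613.6 normalised counts (WT BL) and 177 (WT SD) in wildtype pools, and 447 (KO BL) and 491 (KO SD) in knockout pools. Knockout values lay between the wildtype values, and no source used here gives the part of the gene that was removed, so this checks nothing and genotypes are named as labelled. The cortical label was met by the excitatory marker Slc17a7, at 24900 to 52110 normalised counts, while the striatal markers Isl1 and Drd2 did not exceed 3.76 and 33.8. In bulk tissue, fewer cells of a type and less RNA per cell cannot be told apart.

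All 9 genes were read in every library, and all 9 passed the minimum of a mean of 50 normalised counts that 13550 genes met. Levels between genes are compared per kilobase of the deposited transcript width, which is a mean over annotated transcripts and for Reln (3676 bp, 15 transcripts in GENCODE M21) includes short ones. Lamp5 had the highest mean level, 13640 normalised counts per kb (9024 to 17221 over the 4 libraries). Gad1 followed at 6684 per kb (5809 to 8020) and Pvalb at 4401 per kb (2235 to 9437). Gad2 was at 1336 per kb (1063 to 1654), Slc32a1 at 482 (346 to 700.0), Reln at 355 (290 to 403) and Dlx1 at 345 (279 to 389). Lhx6 was at 195 per kb (137 to 256), and Dlx2 was lowest at 64.6 (37.95 to 89.0). Among neighbours in this order, the ranges of Gad1 and Pvalb overlapped, and Pvalb was above Gad1 in WT SD only (9437 and 6603 per kb). The ranges of Slc32a1, Reln and Dlx1 also overlapped, although their order was the same in every library. They lay close in WT BL (406, 395 and 389 per kb), and the width used for Reln limits its place. The synthesis gene Gad1 was thus above Gad2 in every library, and Dlx1 above Dlx2.

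**Figure D1:**
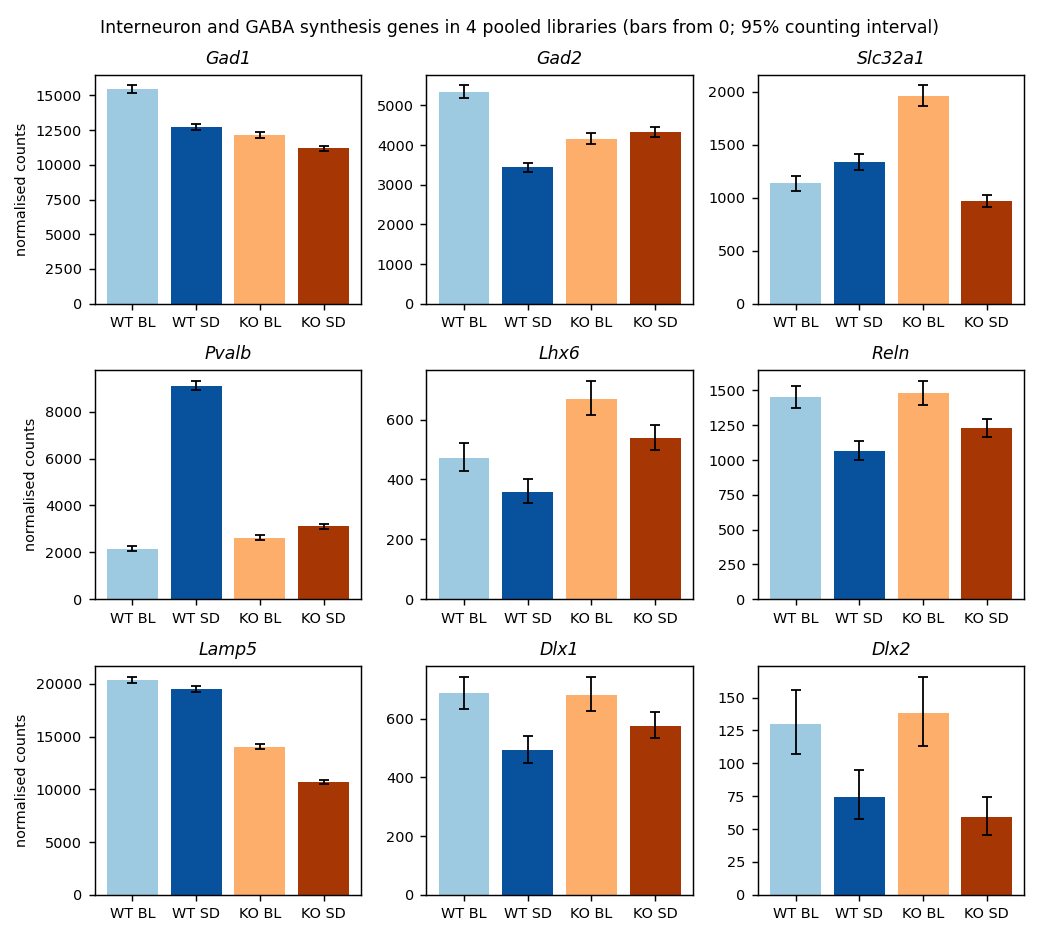
Bars give normalised counts of each gene (y axis, starting at 0, own scale per panel) in the 4 pooled libraries (x axis), with the 95% counting interval of each value. Pvalb stands at 9107 in WT SD against 2157 to 3104 elsewhere, Dlx2 is lower in both sleep-deprived libraries, and Lamp5 is lower in both knockout libraries.

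The first question is how transcripts of GABA synthesis stood in each state. Gad1 was at 15450 normalised counts (WT BL) and 12720 (WT SD) in wildtype pools, and 12140 (KO BL) and 11190 (KO SD) in knockout pools. WT BL was highest and the other libraries lay close together. Over all 4, the highest value of Gad1 was 1.38 times the lowest, a ratio that 13.4% of genes undercut. Gad2, the decarboxylase found mainly at nerve terminals, was at 5348 (WT BL) and 3437 (WT SD) in wildtype pools, and 4165 (KO BL) and 4322 (KO SD) in knockout pools. It was highest in WT BL and lowest in WT SD. The log2 difference of WT SD over WT BL was -0.64 for Gad2 (95% counting interval -0.70 to -0.57) and -0.28 for Gad1 (-0.32 to -0.24). Counting intervals, here and throughout, cover counting error only, not the spread between animals or libraries.

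Because differences between libraries followed GC content and transcript width across genes, each difference of the 9 genes is also given from values with those trends removed by a fit across all genes (corrected values). The corrected difference of WT SD over WT BL was -0.12 for Gad2 and -0.18 for Gad1, so that the gap between the pair of genes seen in deposited values was not present. In knockout pools, KO SD over KO BL was 0.05 for Gad2 (-0.01 to 0.12; corrected -0.11) and -0.12 for Gad1 (-0.16 to -0.08; corrected 0.10). KO BL over WT BL was -0.36 for Gad2 and -0.35 for Gad1, and after the correction -0.07 and -0.47. KO SD over WT SD was 0.33 for Gad2 (corrected -0.06) and -0.18 for Gad1 (corrected -0.19). The ratio of Gad1 to Gad2 within a library, which a scaling factor per library cannot alter but a trend with length or GC content can, was 2.89 in WT BL and 3.70 in WT SD in wildtype pools, and 2.91 (KO BL) and 2.59 (KO SD) in knockout pools. The counting interval of WT SD, 3.56 to 3.85, lay above those of the others, which reached 3.03.

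Slc32a1, which fills vesicles with GABA, was at 1135 normalised counts (WT BL) and 1334 (WT SD) in wildtype pools, and 1958 (KO BL) and 967 (KO SD) in knockout pools. KO BL was the highest and KO SD the lowest, with the wildtype libraries between them. The log2 difference was 0.79 for KO BL over WT BL (0.67 to 0.90) and -1.02 for KO SD over KO BL (-1.13 to -0.91), both past 1.5-fold. After the correction they were -0.01 and -0.37, neither past 1.5-fold, and the direction for KO BL over WT BL was turned. The smaller differences were 0.23 for WT SD over WT BL (corrected -0.24) and -0.46 for KO SD over WT SD (corrected -0.15). Slc32a1 has a GC content of 61.9%, above that of 98.2% of the genes compared, and across all genes the rank correlation with GC content was 0.80 for KO BL over WT BL and -0.71 for KO SD over KO BL. Per unit of Gad1, Slc32a1 was 0.0735 (WT BL) and 0.105 (WT SD) in wildtype pools, and 0.161 (KO BL) and 0.0864 (KO SD) in knockout pools.

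**Figure D2:**
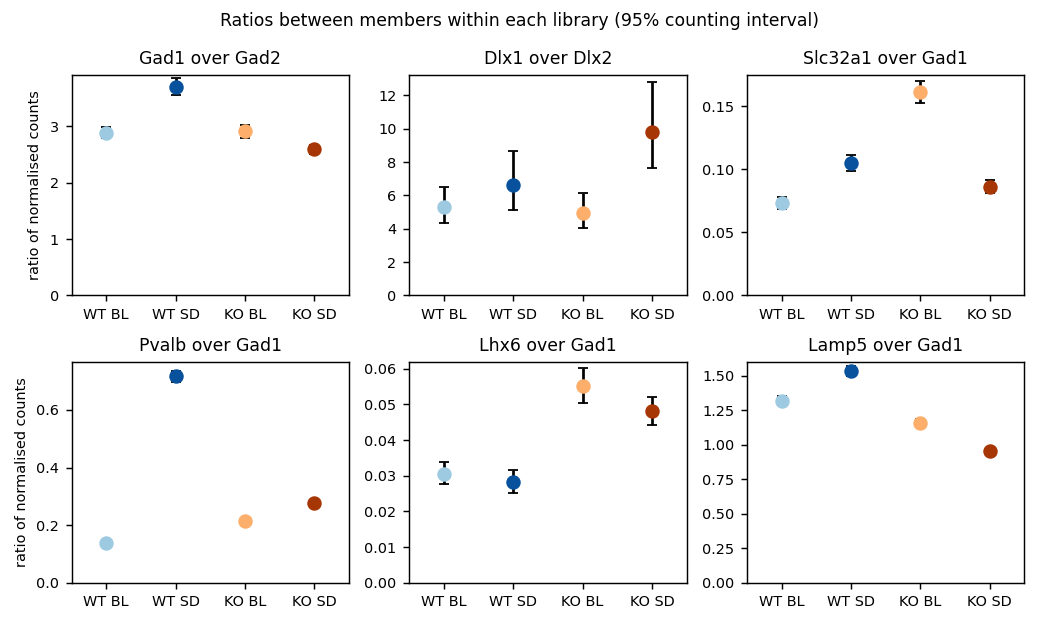
Ratio of normalised counts of pairs of genes (y axis, from 0) within each library (x axis), with 95% counting intervals. Pvalb over Gad1 is 0.716 in WT SD and 0.140 to 0.277 elsewhere, and Lhx6 over Gad1 is higher in both knockout libraries.

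Pvalb, the calcium buffer of fast-spiking interneurons, gave the largest difference among the 9 genes in any comparison. It was at 2157 normalised counts (WT BL) and 9107 (WT SD) in wildtype pools, and 2619 (KO BL) and 3104 (KO SD) in knockout pools. WT SD alone was high, and the other libraries lay within a narrow range. WT SD over WT BL was 2.08 on the log2 scale (2.01 to 2.15), or 4.22-fold, above 97.3% of the genes compared. KO SD over KO BL was 0.25 (0.17 to 0.32), and the difference between these responses, knockout minus wildtype, was -1.83. After the correction, the response was 1.64 in wildtype pools, above 98.4% of genes, and 0.16 in knockout pools, with a difference of -1.48. KO BL over WT BL was 0.28 (0.19 to 0.37; corrected 0.33). KO SD over WT SD, which rests on the same high library, was -1.55 (corrected -1.15).

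Lhx6, the factor of the lineage that gives rise to parvalbumin cells, did not stand higher beside Pvalb in WT SD. Pvalb over Lhx6 was 4.56 (WT BL) and 25.3 (WT SD) in wildtype pools, and 3.91 (KO BL) and 5.76 (KO SD) in knockout pools. In the authors' deposited table for this pair, computed from single libraries, Pvalb had an adjusted p of 0.0462 and was the only 1 of the 9 genes under 0.05. Of all genes given an adjusted p there, 2.83% were under 0.05 and higher in WT SD, and 2.2% under 0.05 and lower. The adjusted p of the others in the authors' deposited table ran from 0.6605 (Dlx2) to 0.9997 (Lamp5). Pvalb has a short transcript (965 bp, longer than those of 11.7% of genes), and short transcripts as a whole were higher in WT SD, with a rank correlation of the difference with length of -0.49 across genes.

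**Figure D3:**
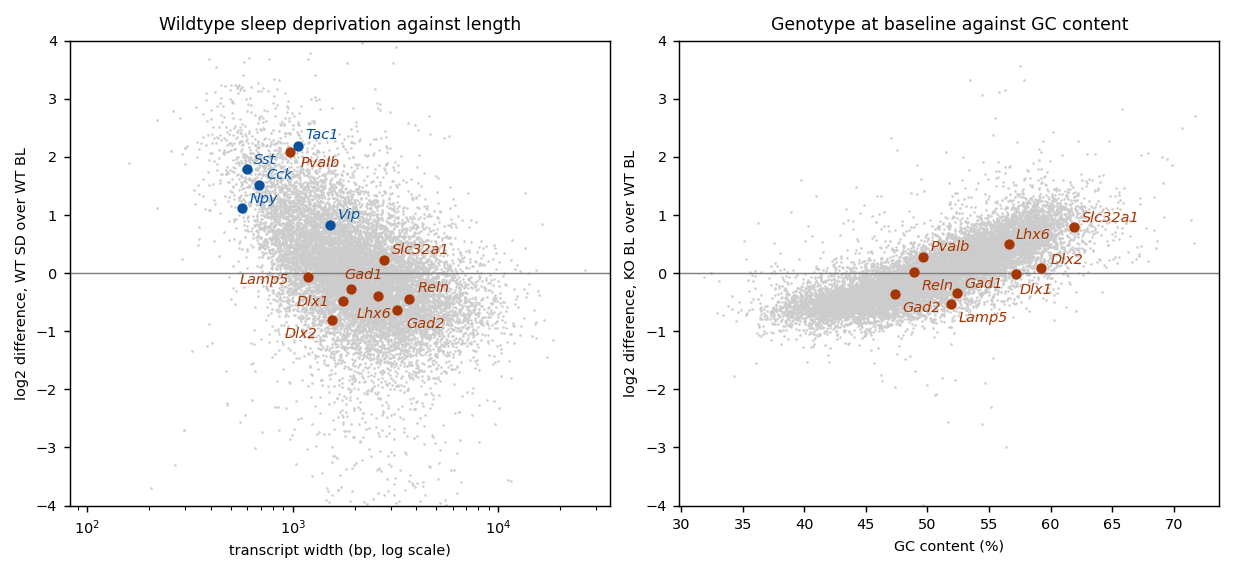
Left, log2 difference of WT SD over WT BL (y axis) against transcript width (x axis, log scale); right, log2 difference of KO BL over WT BL against GC content. Grey points are the 13550 genes compared (117 and 15 lie outside the y axis of -4 to 4). Red points are the 9 genes and blue points 5 other interneuron transcripts. The blue points do not stand for the 17 other class markers compared in the text. In WT SD, 8 of those 17 lay below WT BL by at least 1.5-fold and 7 above it. Their differences ran from -1.92 (Ndnf) to 2.19 (Tac1). Pvalb sits among short genes that are high in WT SD, and Slc32a1 and Lhx6 among GC-rich genes that are high in KO BL. Dlx1 (-0.01) and Dlx2 (0.09) are GC-rich too but not high in KO BL.

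Dlx2, a homeobox factor that acts early in the interneuron lineage, was the only 1 of the 9 genes lower by at least 1.5-fold after sleep deprivation in both genotypes. It was at 129.7 normalised counts (WT BL) and 74.1 (WT SD) in wildtype pools, and 137.9 (KO BL) and 58.8 (KO SD) in knockout pools, or 113, 67, 110 and 67 estimated reads. Both sleep-deprived libraries lay under both baseline libraries, and the counting intervals of the states did not overlap. The log2 difference was -0.80 in wildtype pools (-1.26 to -0.35) and -1.22 in knockout pools (-1.69 to -0.78). After the correction it was -1.44 and -0.62, still past 1.5-fold. The genotype difference of Dlx2 was 0.09 at baseline (corrected -0.63) and -0.33 after sleep deprivation (corrected 0.19). Across all genes, 4.15% were lower by 1.5-fold in both pairs, or 2.68% after the correction, and these shares are the background for a single such gene among 9. In the additive fit described below, the effect of sleep deprivation on Dlx2 was -1.01 (SE 0.72, adjusted p = 0.9998 with limma), and -1.03 (SE 0.43, unadjusted p = 0.0482, adjusted p = 0.427) for corrected values.

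Its neighbour Dlx1 was at 686.5 normalised counts (WT BL) and 492 (WT SD) in wildtype pools, and 682 (KO BL) and 576 (KO SD) in knockout pools. The sleep-deprived libraries were again the lower ones, but the differences were smaller. They were -0.48 in wildtype pools (-0.66 to -0.30) and -0.24 in knockout pools (-0.41 to -0.08). After the correction they were -0.81 and 0.28, so that the direction in knockout pools depended on the correction. The genotype difference of Dlx1 was -0.01 at baseline (corrected -0.57) and 0.23 after sleep deprivation (corrected 0.52). The ratio of Dlx1 to Dlx2 was 5.29 (4.32 to 6.53) at baseline and 6.64 (5.10 to 8.68) after sleep deprivation in wildtype pools. In knockout pools it was 4.95 (4.03 to 6.14) and 9.80 (7.62 to 12.80). The intervals of the first 3 values overlapped, and that of KO SD lay above those of the baseline libraries. As given above, reads of Dlx1 and Dlx1as cannot be told apart, which bears on these values and ratios. Dlx1as was at 161.6 (WT BL) and 28.9 (WT SD) in wildtype pools, and 152.7 (KO BL) and 149.2 (KO SD) in knockout pools.

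Lhx6, the LIM homeobox factor of the medial lineage, was at 473 normalised counts (WT BL) and 359 (WT SD) in wildtype pools, and 670.2 (KO BL) and 539 (KO SD) in knockout pools. Both knockout libraries were above both wildtype libraries. The difference of KO from WT was 0.50 in baseline libraries (0.31 to 0.69) and 0.58 in sleep-deprived ones (0.39 to 0.79), just under 1.5-fold. After the correction these were 0.03 and 0.63, so that at baseline the difference was no longer there. SD over BL of Lhx6 was -0.40 in wildtype pools (corrected -0.42) and -0.31 in knockout pools (corrected 0.19). Per unit of Gad1, Lhx6 was 0.0306 (WT BL) and 0.0283 (WT SD) in wildtype pools, and 0.0552 (KO BL) and 0.0482 (KO SD) in knockout pools. Its GC content of 56.6% exceeded that of 82.3% of genes. Those of Dlx1 and Dlx2 exceeded 85.1% and 93.4% of genes, and their deposited KO BL over WT BL differences were -0.01 and 0.09.

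Reln, the secreted guidance protein made in the adult cortex by interneurons, varied little. It was at 1452 normalised counts (WT BL) and 1065 (WT SD) in wildtype pools, and 1481 (KO BL) and 1227 (KO SD) in knockout pools. The difference of sleep-deprived from baseline libraries was -0.45 in wildtype pools (-0.57 to -0.32) and -0.27 in knockout pools (-0.38 to -0.16). After the correction the differences were 0.08 and -0.30. The genotype difference of Reln was 0.03 at baseline (corrected 0.20) and 0.20 after sleep deprivation (corrected -0.18). The baseline libraries of both genotypes had overlapping counting intervals, 1373 to 1535 in WT BL and 1398 to 1568 in KO BL.

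Lamp5, the most abundant of the 9 per length, was lower in the knockout pools in both sleep states. It was at 20400 normalised counts (WT BL) and 19490 (WT SD) in wildtype pools, and 14050 (KO BL) and 10690 (KO SD) in knockout pools. Both knockout values were below both wildtype values. The difference of KO from WT was -0.54 in baseline libraries (-0.57 to -0.50) and -0.87 in sleep-deprived ones (-0.90 to -0.83). After the correction these were -0.65 and -0.57, which changed which of them was past 1.5-fold and kept both directions. The effect of genotype in the additive fit was -0.70 (SE 0.48, adjusted p = 0.99995 with limma), and -0.61 (SE 0.24, unadjusted p = 0.0386, adjusted p = 0.9996) for corrected values. SD over BL was -0.07 in wildtype pools (corrected -0.33) and -0.39 in knockout pools (corrected -0.26). The sum of the 11 excitatory markers found was 82116 normalised counts (WT BL) and 129522 (WT SD) in wildtype pools. In knockout pools it was 113417 (KO BL) and 74260 (KO SD). This sum did not follow the order of Lamp5, but Nrgn, with a short transcript (950 bp), made up 86480 of it in WT SD. The median difference of KO from WT over these markers was 0.45 at baseline (corrected -0.17). After sleep deprivation it was 0.15 (corrected -0.20). The part of excitatory cells in the values of Lamp5 was not tested.

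**Figure D4:**
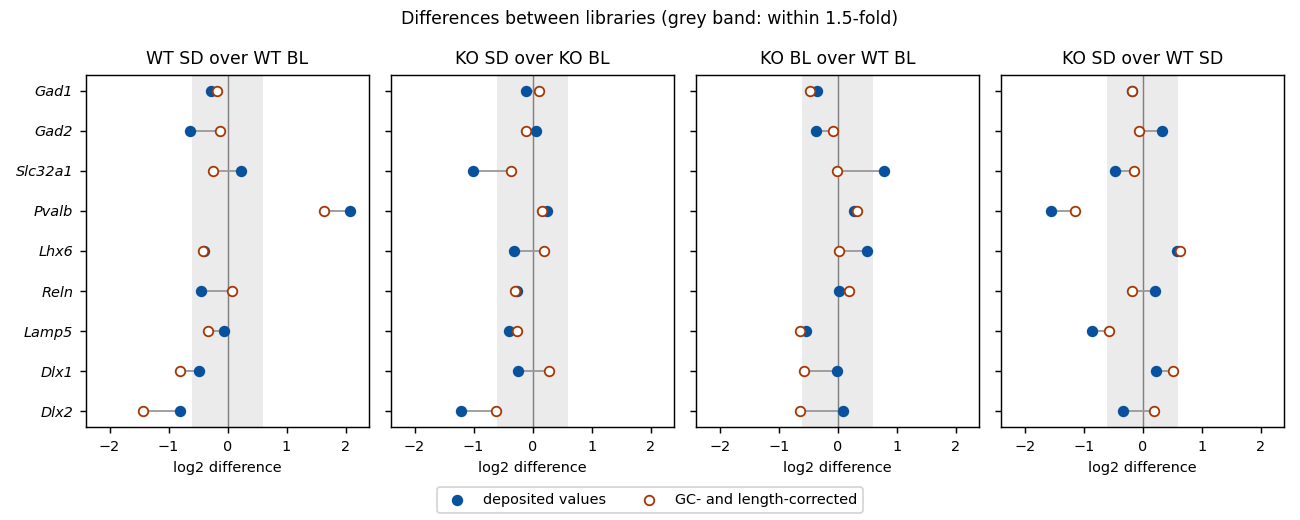
Log2 difference (x axis) of each gene (y axis) in the 4 comparisons, from deposited values (filled) and after removal of trends with GC content and length (open); the grey band is the range within 1.5-fold. Pvalb in WT SD over WT BL (2.08, corrected 1.64) and Dlx2 in both sleep deprivation comparisons stay outside the band in both forms, while Slc32a1 in KO BL over WT BL moves from 0.79 to -0.01.

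Counted together, 1 of the 9 genes (Pvalb) was higher by 1.5-fold in WT SD than in WT BL, against 24.5% of all genes, and 2 were lower (Gad2 and Dlx2), against 24.1%. After the correction, 1 was higher (Pvalb; 18.5% of all genes) and 2 lower (Dlx1 and Dlx2; 18.2%). In KO SD over KO BL none was higher (16.2% of all genes) and 2 were lower (Slc32a1 and Dlx2; 16.4%), and after the correction none was higher (7.79%) and 1 lower (Dlx2; 5.34%). In KO BL over WT BL 1 was higher (Slc32a1; 16.5%) and none lower (10.7%), and after the correction none was higher (3.19%) and 2 were lower (Lamp5 and Dlx2; 3.48%). In KO SD over WT SD none was higher (19.8%) and 2 were lower (Pvalb and Lamp5; 21.1%), and after the correction Lhx6 was higher (14.5%) and Pvalb lower (12.7%). The response to sleep deprivation differed between genotypes by at least 1 on the log2 scale for 2 genes (Slc32a1 and Pvalb, both more negative in knockout pools; 19.2% of all genes in that direction, 16.6% in the other). After the correction it did so for Pvalb (5.56%) and, in the other direction, Dlx1 (1.09; 8.19%). Past 1.5-fold in either direction were 3 of 9 genes in WT SD over WT BL (48.6% of all genes), 2 in KO SD over KO BL (32.6%), 1 in KO BL over WT BL (27.1%) and 2 in KO SD over WT SD (40.9%), and 2 differed in response (35.8%). The same counts from corrected values were 3 (36.7%), 1 (13.1%), 2 (6.66%), 2 (27.2%) and 2 (13.8%). From deposited values each of these shares of the 9 genes was below that of all genes. From corrected values those for KO BL over WT BL and for the difference of responses were above it, on 2 genes each.

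The median of the 9 genes was -0.40 in wildtype pools and -0.27 in knockout pools, where the median of all genes was -0.04 in each. In each genotype 7 of the 9 values were below 0, against 51.6% of all genes in wildtype and 52.0% in knockout pools. After the correction 7 were below 0 in wildtype pools (49.2% of all genes) and 5 in knockout pools (49.8%). From deposited values 6 genes (Gad1, Lhx6, Reln, Lamp5, Dlx1 and Dlx2) were below 0 in both, against 25.9% of all genes; these pairs share no library. With corrected values the medians were -0.24 and -0.11, and 4 genes (Gad2, Slc32a1, Lamp5 and Dlx2) were below 0 in both, against 30.4%. Pvalb was above 0 in both, with 22.2% of all genes by deposited values and 31.4% by corrected ones. For genotype, Lhx6 and Reln were above 0 in both sleep states and Gad1 and Lamp5 below 0 in both, against 18.1% and 17.7% of genes. After the correction Lhx6 was above 0 in both (23.0%) and Gad1, Gad2, Slc32a1 and Lamp5 below (23.3%). None of the 9 was lower in knockout pools by 1.5-fold in both states (0.546% of all genes; corrected 0.583%).

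An additive fit of sleep state and genotype over the 4 libraries (limma, with 1 residual degree of freedom) was the test made. For deposited values its prior degrees of freedom were infinite. Each SE and p thus came from the variance trend over all genes, not from the spread of the gene itself. For corrected values the prior had 6.28 degrees of freedom, so the trend still weighed more than the gene. At an adjusted p under 0.05 it called 0.753% of genes for sleep deprivation and 0.384% for genotype, and none of the 9. The smallest adjusted p among the 9 was that of Pvalb for sleep deprivation, 0.587, with an effect of 1.16 (SE 0.50, unadjusted p = 0.0209). That effect averages unlike responses, 2.08 in wildtype and 0.25 in knockout pools. The corrected values gave Pvalb 0.90 (SE 0.36, unadjusted p = 0.0419, adjusted p = 0.425). With these values the fit called 0.0221% of genes for sleep deprivation and 0.00738% for genotype. At an unadjusted p under 0.05 limma gave 1 of the 9 for sleep deprivation (Pvalb; 6.13% of all genes) and none for genotype (2.05%). From corrected values it gave 2 for sleep deprivation (Pvalb and Dlx2; 11.7%) and 1 for genotype (Lamp5; 2.84%).

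The likeness of patterns was measured as the root mean square difference of log2 values over the 4 libraries, each gene centred on its own mean. Deposited values were used, so trends with length and GC content remain in these patterns, and likeness of corrected values was not examined. Closest to Pvalb among 12324 protein-coding genes were Mrps21 (0.018), Myl6 (0.033) and Glrx5 (0.046), which encode a mitochondrial ribosomal protein, a myosin light chain and a glutaredoxin. Their transcripts are as short as that of Pvalb or shorter, at 461, 665 and 930.0 bp. Mrps21 was at 1065 normalised counts (WT BL) and 4542 (WT SD) in wildtype pools, and 1289 (KO BL) and 1577 (KO SD) in knockout pools. Closest to Gad1 were Rad1 (0.024), Zranb3 (0.031) and Nol11 (0.036), and to Reln Pms2 (0.007), Dcaf5 (0.011) and Eif4enif1 (0.016). With 4 libraries many genes share a pattern: 40 genes lay within 0.1 of Pvalb, 156 of Gad1 and 372 of Reln.

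Markers of other interneuron classes differed in both directions in WT SD. Of 17 compared, 7 were higher and 8 lower than in WT BL (24.5% and 24.1% of all genes), with a median of -0.52. The neuropeptide genes Tac1 (2.19), Sst (1.79) and Cck (1.52) were highest. Ndnf (-1.92), the cannabinoid receptor Cnr1 (-1.70) and the nitric oxide synthase Nos1 (-1.58, sharing exons with another gene) were lowest. From corrected values 3 passed as higher and 5 as lower (18.5% and 18.2% of all genes). Tac1 then stood at 1.92, Sst at 0.26 and Cck at 0.04, and Ndnf at -1.48, Cnr1 at -1.17 and Nos1 at -1.34. Sst, the peptide of the other large class from the medial eminence, was at 2619 normalised counts (WT BL) and 9081 (WT SD) in wildtype pools, and 5742 (KO BL) and 3581 (KO SD) in knockout pools. Its transcript width is 599 bp and that of Cck 685 bp. In deposited values Sst thus resembled Pvalb in wildtype pools, and in corrected values it did not. Npy, chosen after its values were seen, and Vip were 1.12 and 0.84 in this pair, and -0.33 and 0.90 after the correction. In knockout pools 2 of the 17 were higher and 5 lower (16.2% and 16.4% of all genes), with a median of -0.13. After the correction 1 was higher and 1 lower (7.79% and 5.34%), with a median of -0.28. Deposited values ran from the serotonin receptor gene Htr3a (-0.88, corrected -0.57) to the peptide gene Crh (0.87, corrected 0.94).

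Other transcription factors of the lineage differed in both directions. Of 12 compared in WT SD over WT BL, 4 stood higher and 3 lower around a median of 0.10 (corrected 5 and 3, median 0.41). The shares of all genes were 24.5% and 24.1% (corrected 18.5% and 18.2%). Dlx6 (1.71, corrected 1.30, sharing exons with another gene), Npas1 (211.7 against 74.5 normalised counts, corrected 0.73) and Dlx5 (0.96, corrected 0.62) were higher. Sox6 (-2.39, corrected -1.69) and Prox1 (-1.39, corrected -0.80) were lower in both forms, and Sp8 from deposited values (-0.64, corrected -0.06). Prox1, and Nr2f2 named below, also share exons with another gene. Dlx5 was at 72.3 normalised counts (WT BL) and 141 (WT SD) in wildtype pools, and 79.0 (KO BL) and 58.8 (KO SD) in knockout pools. In knockout pools 1 of the 12 was higher (Nr2f2, 0.68) and 1 lower (Npas1, -1.31), with a median of -0.02. After the correction none was higher (Nr2f2 0.50) and 1 lower (Npas1 -0.61), with a median of 0.23. Of all genes 16.2% were higher and 16.4% lower in knockout pools (corrected 7.79% and 5.34%).

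Of 9 genes that clear, break down or feed GABA, 6 were lower in WT SD than in WT BL and none higher, against 24.1% and 24.5% of all genes, with a median of -0.63 beside -0.04 for all genes. After the correction 2 were lower (Slc6a11 and Slc6a13; 18.2% of all genes), none was higher, and the median was -0.15. The glial GABA transporter gene Slc6a11 was at 6118 normalised counts (WT BL) and 1768 (WT SD) in wildtype pools, and 7312 (KO BL) and 5712 (KO SD) in knockout pools. Its difference in wildtype pools was -1.79 (corrected -1.45), and that of Slc6a13, whose product carries GABA at vessels and meninges, was -1.09 (corrected -1.43). Slc6a13 was as low in knockout pools (-1.19, corrected -0.95), where it was the only 1 of the 9 that was lower (16.4% of all genes, corrected 5.34%). Glul, the glutamine synthetase gene of astrocytes, was the only 1 higher there (0.60, corrected 0.64), against 16.2% of all genes (corrected 7.79%). Glul shares exons with other genes. Slc38a1, whose product brings glutamine into neurons, was -0.85 in wildtype pools (corrected -0.14) and -0.06 in knockout pools (corrected -0.13).

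Genes of fast-spiking firing and of perineuronal nets, the matrix around many parvalbumin cells, were listed beside Pvalb, although glia and other neurons also make several of them. Of 10 compared in WT SD over WT BL, 2 were higher, 3 lower, and the median was -0.03 (corrected 2 and 3, median 0.17). Of all genes 24.5% were higher and 24.1% lower (corrected 18.5% and 18.2%). The potassium channel gene Kcnc1 of fast-spiking cells was at 5877 normalised counts in WT BL and 3532 in WT SD (-0.73, corrected -0.60). It was at 6425 in KO BL and 4002 in KO SD (-0.68, corrected -0.19). Tnr, a net protein made mainly by glia whose gene shares exons with another, was at 418 and 28.6 in wildtype pools (-3.82, corrected -3.41). In knockout pools Tnr was at 424.5 and 205 (-1.05, corrected -0.74). Acan, the core proteoglycan of the nets, stood at 88.9 (WT BL) and 168 (WT SD) in wildtype pools, and 102.7 (KO BL) and 128 (KO SD) in knockout pools. In knockout pools 1 was higher and 4 lower (median -0.42), and after the correction 2 were higher and 1 lower (median 0.06). Of 7 reelin receptor and adaptor genes 4 were lower in WT SD than in WT BL (24.1% of all genes) and none higher, with a median of -0.70. After the correction 2 were lower (18.2%), Crkl and Lrp8, with a median of -0.51. The adaptor gene Crkl was at 1101 normalised counts in WT BL and 67.8 in WT SD, while the receptor gene Vldlr (-0.90, corrected -0.51) and the kinase gene Fyn (-0.73, corrected -0.51) were past 1.5-fold in deposited values only. In knockout pools none of the 7 was lower (16.4% of all genes) and 2 were higher (16.2%), around a median of 0.36. These were Crk (0.97, corrected 1.13) and Pafah1b1 (0.66, corrected 0.02). After the correction none was lower (5.34% of all genes), and the 2 higher ones (7.79%) were Crk and Lrp8 (0.36, corrected 0.87), around a median of 0.28.

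**Figure D5:**
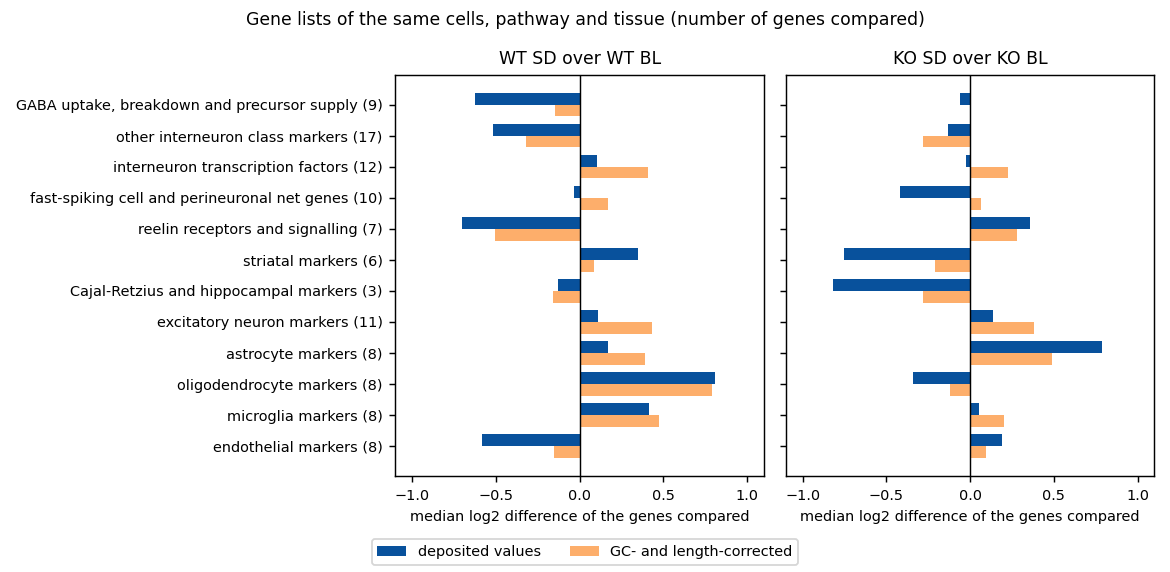
Median log2 difference (x axis) of the compared genes of 12 lists (y axis, number compared in brackets) in the sleep deprivation comparisons, from deposited and corrected values. Oligodendrocyte markers are highest in wildtype pools (0.81, corrected 0.79) and astrocyte markers in knockout pools (0.78, corrected 0.49); other interneuron class markers and transcription factors lie between -0.52 and 0.41.

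Markers of other cell types also differed between these pools, and corrected counts are given in brackets, to be read against the same shares of all genes as above. Of 8 oligodendrocyte markers 6 were higher in WT SD than in WT BL (5) and 6 higher in KO BL than in WT BL (6), with summed levels of 38137.5 (WT BL), 74253 (WT SD), 65756 (KO BL) and 65283 (KO SD) normalised counts. Of 8 astrocyte markers 5 were higher in KO SD than in KO BL, where 16.2% of all genes were, and 2 after the correction (7.79%). Their summed level was 222597 in KO SD against 118698 to 166553 in the others, and in WT SD 3 were higher (4) and 2 lower (0). Microglial markers summed to 16289 to 21671, with 4 of 8 higher in WT SD (4) and 2 of 8 in KO SD (1). Endothelial markers summed to 7815 to 8740, with 4 of 8 lower (2) and 1 higher (1) in WT SD. The 8 striatal markers found summed to 7847 to 9276, with 2 of the 6 compared higher (1) and 1 lower (2) in WT SD, and 1 higher (1) and 4 lower (2) in KO SD. Of 7 Cajal-Retzius and hippocampal markers 3 were compared, of which 1 was lower in WT SD (1) and 2 in KO SD (0), and the Cajal-Retzius genes Trp73 and Lhx5 did not exceed 13.8 and 2.52. Excitatory markers held 4 higher (5) and 1 lower (1) of 11 in WT SD, and 3 higher (3) and 3 lower (0) in KO SD. The part of these cell types in the values of the 9 genes was not tested.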

How the data were processed

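Each of 4 deposited tables, 1 per comparison, listed 39179 genes with an expression signal for every library; per the file headers and the values, the authors deposited estimated counts after dividing each library by its own factor. The submitters' processing notes name RSEM 1.2.19 and edgeR; the aligner is not given in the sources used here. The deposited log2 ratios, p-values and adjusted p-values are the authors' own, from single libraries, and the sign of the ratios was turned here to give sleep deprivation over baseline and knockout over wildtype. GC fraction and transcript width are as deposited by the authors. The tables agreed in every cell except 1 turned into a date in 1 table, so another was read.

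The value of 1 read, taken as the commonest value above 0, was 0.878 to 1.25 normalised counts. Of low values, 51.3% to 60.9% were whole to within 0.02 reads, so no count model was run. Exact 95% Poisson and binomial intervals used these reads. Fold changes are differences of log2(value + 1), which understates changes of low genes; a mean of 50 or more was required. For corrected values, a symmetric loess (span 0.3, degree 2) on GC and log10 width was fitted to the deviation of a library from the 4-library mean and subtracted; it is an alternative, not the main setting. The additive fit was by limma 3.58.1 (trend variance, Benjamini-Hochberg over 13550 genes), tested on simulated data. Alternatives were the pseudocount, the filter, scaling by total counts and this correction.

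The 9 genes and 12 lists (118 entries, 115 found once, 107 compared) were chosen with earlier results of these data known, as was the use of the correction. All 9 genes are named; from each list up to 3 per direction with the largest difference in either sleep deprivation comparison, and any needed for a range. Likeness was listed for Gad1, Pvalb and Reln, 3 genes each. Sequences were matched by symbol for 9 of 9 genes.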

Additional observations from a re-analysis of the deposited data

Results flagged for a closer look

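Slc32a1 moved in opposite directions with sleep deprivation in the genotypes, 0.23 in wildtype and -1.02 in knockout pools, a difference of -1.25. After the correction both values were below 0, at -0.24 and -0.37, a difference of -0.13. Its genotype difference likewise had opposite signs at baseline (0.79) and after sleep deprivation (-0.46), which is the same difference of -1.25 taken the other way (corrected -0.01 and -0.15). The genotype difference of Pvalb was 0.28 at baseline and -1.55 after sleep deprivation, a difference of -1.83 (corrected -1.48). That of Gad2 was -0.36 and 0.33, a difference of 0.69 (corrected 0.02). In each of these cases both counting intervals lay away from 0, but with 1 library per group the difference was not tested.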

How the results depend on the processing

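With a pseudocount of 5, no count of genes moved by over 1.5 times, and with it or without the filter on low values each difference of the 9 genes stayed within its counting interval and each fitted effect kept its direction. Without the filter, 12542 genes passed 1.5-fold in WT SD over WT BL, 9671 in KO SD over KO BL, 8610 in KO BL over WT BL and 11272 in KO SD over WT SD, in place of 6580, 4419, 3673 and 5538; 10245 differed in response (4857), and the additive fit called 175 for sleep deprivation (102). With the GC and length correction, 1778, 903 and 3685 passed in the last 3 comparisons, 1864 differed in response, and the additive fit called 3 genes for sleep deprivation and 1 for genotype (52). The number of the 9 genes past 1.5-fold went from 2 to 1 in KO SD over KO BL and from 1 to 2 in KO BL over WT BL, and Slc32a1 turned from 0.79 to -0.012 in the latter. Its genotype effect in the additive fit went from 0.16 to -0.079 and that of Dlx1 from 0.11 to -0.025; the cause was not tested. Under total count scaling the all-gene median was -0.20 in WT SD over WT BL and -0.12 in KO SD over KO BL (-0.04 in both otherwise). It gave 5 of the 9 genes past 1.5-fold in the former in place of 3 (Reln and Dlx1 added), and a genotype effect of 0.016 in place of -0.015 for Gad2. Of the 36 differences of the 9 genes, the correction turned the sign of 11, among them Slc32a1 as above and 10 that were under 1.5-fold before it; total count scaling turned 1 (Gad2 in KO SD over KO BL). Beside Slc32a1 in KO BL over WT BL, 30 lay outside their counting intervals under the correction, and 14 under total count scaling. No paired analysis was possible because each group has 1 library, and for the same reason none could be left out.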
